A study of Mus musculus with 30 samples.

Results

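The 6 arrays taken 3 h after an injection of estradiol benzoate (EB) or of oil compared the early response of the newborn female hypothalamus to estrogen. They were chosen by treatment and time alone and are 6 of the 30 arrays of the series. All mice were C57BL/6J females, injected subcutaneously on the day of birth at a body weight of about 1.4 g. The EB group (n = 3) received 7.5 μg of EB, an ester of estradiol, in 20 μl of peanut oil, and the vehicle group (n = 3) received oil alone. The whole hypothalamus of each mouse was dissected between the optic chiasm and the mammillary bodies, and its RNA was hybridised to a GeneChip Mouse Genome 430 2.0 array, on which a gene is read by 1 or more probe sets. Each replicate was 1 mouse, but which mice shared a litter is not given in the sources used here, so p-values measure the spread between the mice of this series only. For p-values from limma, that spread was estimated over all 30 arrays and not from the 6 alone.

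Estradiol acts mainly through estrogen receptors α and β, nuclear receptors that bind DNA and change the transcription of target genes such as Pgr, which encodes the progesterone receptor, and Greb1. In the perinatal male rodent, androgen from the testis is converted to estradiol in the brain, and this estradiol masculinizes and defeminizes the circuits of reproduction. Estrogen can also act within minutes through kinases and calcium, a route that induces immediate early genes such as Fos and Egr1.

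Of 27022 probe sets tested at 3 h, 102 (0.377%) were lower and 26 (0.0962%) were higher in EB-treated than in vehicle-treated mice by limma (adjusted p under 0.05). Those that were lower named 90 genes, with the largest changes in Golph3, Dyrk1a and Ugcg, and the higher ones named 22 genes, with the largest in Snrnp48 and Cxcl1. The lower probe sets had a median log2 fold change of -0.79 and ranged from -2.58 to -0.31, and 29 of them changed at least 2-fold. The higher probe sets had a median of 0.51, and 3 changed at least 2-fold. The median over all probe sets tested was 0.05. In RNA of a whole tissue, fewer cells that express a gene and less RNA in each cell cannot be told apart.

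In all 102 lower probe sets the EB arrays lay below the 3 vehicle arrays, as they did in 5.3% of all probe sets tested, and in all 26 higher ones they lay above, as in 8.71% of those tested. The probe sets were called on these same arrays, so this separation follows largely from the call and is not support for it. The EB arrays did not move equally. EB replicate 3 was the lowest of the EB arrays in 73 of the 102 lower probe sets, EB replicate 2 in 25 and EB replicate 1 in 4, whereas over all probe sets tested EB replicate 3 was the lowest in 33.2%. Limma called 24 lower and 3 higher probe sets without EB replicate 3, 29 and 8 without vehicle replicate 2, 57 and 20 without vehicle replicate 1, 183 and 40 without EB replicate 1, and 77 and 86 without vehicle replicate 3. Fitted to the 6 arrays of 3 h alone, with only their own spread, it called 16 lower and 1 higher. On deposited signals that were not scaled between arrays it called 235 lower and 2 higher probe sets, and there the median over all probe sets was -0.20. The medians of 34 of the 41 gene lists counted in the following comparisons changed sign without scaling, so each is read against the median of all probe sets and not against 0.

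Klc1 encodes a light chain of kinesin-1, the motor that carries cargo along microtubules away from the cell body. Its called probe set read a scaled signal of 465, 593 and 552 in vehicle mice and of 223, 193 and 159.9 in EB mice. No EB array reached the lowest vehicle array, and the signal was 2.81-fold lower with EB (log2 fold change -1.49, standard error 0.17, adjusted p = 4.6e-05 from limma), the smallest adjusted p of the comparison. The brightest Klc1 probe set, at 4853, 3856 and 5116 with vehicle and 4834, 4653 and 4644 with EB, did not pass (log2 fold change 0.04, adjusted p = 0.90 from limma). Kif1b, a kinesin that carries precursors of synaptic vesicles, read 144, 145 and 115 with vehicle and 91.0, 83.2 and 71.1 with EB in 1 of its 7 probe sets (log2 fold change -0.72, adjusted p = 0.030 from limma), without overlap. It did not pass without EB replicate 2 or 3 or without vehicle replicate 1 or 2, where its log2 fold change lay between -0.74 and -0.62. Of 18 measured kinesin and dynein motors and adaptors, each taken by its brightest probe set, none passed, and their median log2 fold change was 0.06.

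Golph3, Arf2, Gdi2 and Kdelr2 encode proteins of the Golgi apparatus and of vesicle traffic. Golph3, a Golgi phosphoprotein that helps to keep enzymes in the Golgi, read 62.9, 48.1 and 46.6 with vehicle and 19.9, 18.8 and 1.79 with EB in the probe set with the largest change of all. The third EB array stood far below the others there: the probe set was called with it (log2 fold change -2.58, standard error 0.55, adjusted p = 0.026 from limma) and not without it (-1.43, adjusted p = 0.20 from limma), nor without vehicle replicate 1 (-2.44) or 2 (-2.63). A second Golph3 probe set read 127, 149 and 115 with vehicle and 78.5, 72.2 and 31.0 with EB (log2 fold change -1.21, adjusted p = 0.018 from limma), and failed without the same 3 arrays, with a log2 fold change of -0.78 without EB replicate 3. The remaining Golph3 probe sets had log2 fold changes of 0.07 and 0.35 and did not pass.

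Arf2 is a small GTPase that recruits coat proteins to membranes, and 3 of its 4 probe sets were lower. One read 505, 511 and 558 with vehicle and 351, 289.7 and 251 with EB (log2 fold change -0.83, standard error 0.10, adjusted p = 5.9e-05 from limma). Another, of a type whose probes can match further transcripts, read 70.5, 98.2 and 80.7 with vehicle and 39.7, 29.9 and 35.5 with EB (log2 fold change -1.24, standard error 0.18, adjusted p = 0.00045 from limma). In both, every EB array was well below the vehicle arrays, and both passed without each of the 6 arrays in turn. The third was at -1.44 (adjusted p = 0.0063 from limma), but did not pass without EB replicate 3 (-1.28, adjusted p = 0.084 from limma) or without vehicle replicate 2 (-1.36, adjusted p = 0.056 from limma). The brightest read 769, 788 and 779 with vehicle and 743, 703 and 674 with EB and did not pass (log2 fold change -0.14, adjusted p = 0.43 from limma).

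Gdi2 returns Rab GTPases from membranes to the cytosol. One of its probe sets read 727, 843 and 849.6 with vehicle and 477, 416 and 285 with EB (log2 fold change -1.07, standard error 0.18, adjusted p = 0.0034 from limma), and did not pass without EB replicate 3 (-0.85, adjusted p = 0.070 from limma). A second was also lower (log2 fold change -0.49, adjusted p = 0.017 from limma), but not without EB replicate 2 or 3 or vehicle replicate 2, and the 4 others were 0.11 or less in size. Kdelr2, a receptor that returns resident proteins to the endoplasmic reticulum, read 198, 161 and 164 with vehicle and 123, 109 and 111 with EB in 1 of 2 probe sets (log2 fold change -0.60, adjusted p = 0.011 from limma). This did not pass without EB replicate 3 (-0.58) or vehicle replicate 1 (-0.51). Of 6 probe sets listed for both Tmed2, a p24 cargo receptor, and Gm10698, 2 were lower with EB. One read 346, 399.6 and 387 with vehicle and 250.2, 199 and 121 with EB (log2 fold change -1.05, adjusted p = 0.015 from limma). The other read 356, 439 and 460.1 with vehicle and 309, 224 and 173 with EB (log2 fold change -0.86, adjusted p = 0.0098 from limma). Neither passed without EB replicate 3 (-0.75 and -0.66) or vehicle replicate 2 (-1.01 and -0.82), and which of the 2 genes they measured cannot be told apart. The 4 that did not pass ranged from -0.49 to 0.01. Of 30 measured Arf, COPI and p24 vesicle traffic genes none passed by the brightest probe set, and their median log2 fold change was 0.09.

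**Figure D1:**
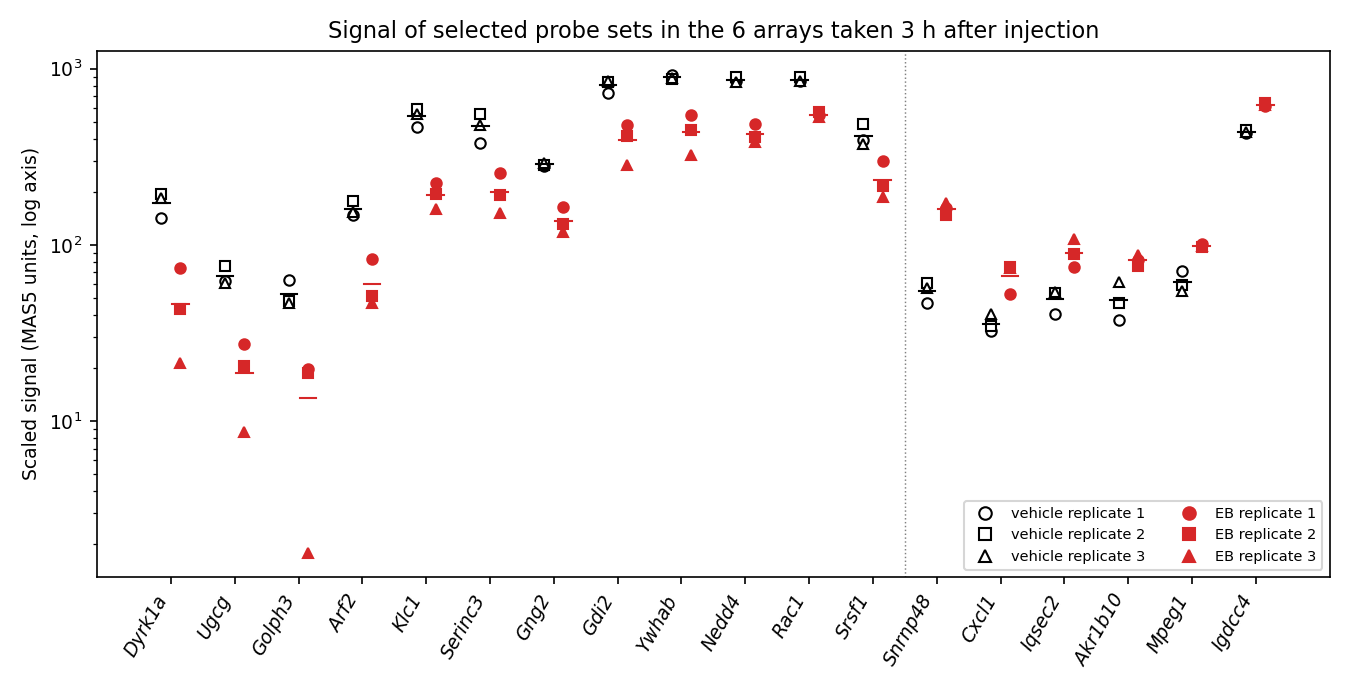
Scaled signal (y axis, MAS5 units, log axis) of a probe set of each of 18 genes (x axis) in the 6 arrays of 3 h, with open black symbols for vehicle, filled red symbols for EB, a shape for each replicate number and a short horizontal line for each group mean (n = 3). Genes left of the dotted line were lower with EB and those right of it higher, the groups do not overlap in any gene shown, and EB replicate 3 of Golph3 lies lowest, at 1.79.

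Nedd4 is a ubiquitin ligase that marks membrane proteins for endocytosis and is needed for the growth of neurites. Its called probe set read 850.1, 896 and 842 with vehicle and 487, 407 and 384 with EB, with replicates close to one another in both groups. It was about as low in every EB mouse (log2 fold change -1.03, standard error 0.12, adjusted p = 5.9e-05 from limma) and passed without each array in turn. Another Nedd4 probe set read 662, 700.4 and 677 with vehicle and 509, 423 and 535 with EB, which did not overlap, but it did not pass (log2 fold change -0.48, adjusted p = 0.066 from limma). The brightest was at -0.01, and of 11 measured genes of the Nedd4 family and its adaptors none passed by the brightest probe set, with a median of 0.05.

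Dyrk1a is a dual-specificity kinase that acts on splicing factors and on the calcineurin pathway and is known for its dose sensitivity in brain growth. Its called probe set read 141, 195 and 185 with vehicle and 74.2, 43.2 and 21.4 with EB, a 4.20-fold difference (log2 fold change -2.07, standard error 0.29, adjusted p = 0.00037 from limma). Values of the EB mice were far apart, yet the highest of them was below the lowest vehicle mouse, and the probe set passed without each array in turn. The brightest Dyrk1a probe set read 243, 295 and 348 with vehicle and 314, 294 and 277 with EB, which overlapped (log2 fold change 0.01, adjusted p = 0.98 from limma). Of 13 measured Dyrk, Clk, Hipk and Srpk kinases none passed by the brightest probe set, with a median of 0.01.

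Ugcg makes glucosylceramide, the first step of the synthesis of most gangliosides. Its called probe set read 62.7, 76.1 and 60.7 with vehicle and 27.3, 20.5 and 8.70 with EB, a 3.90-fold difference (log2 fold change -1.96, standard error 0.33, adjusted p = 0.0026 from limma), and passed without each array in turn. The brightest Ugcg probe set lay on the other side without passing, at 232, 246 and 252 with vehicle and 298, 285 and 254 with EB (log2 fold change 0.19, adjusted p = 0.38 from limma). Of 20 measured genes of sphingolipid and ganglioside synthesis none passed by the brightest probe set, with a median of 0.03.

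Several lower probe sets belonged to genes of signal transduction and the cytoskeleton. Rac1, a GTPase that shapes actin in spines and growth cones, was the only lower gene with more than 1 kept probe set in which all of them passed. One read 846, 899 and 856 with vehicle and 542, 568 and 531 with EB (log2 fold change -0.66, standard error 0.09, adjusted p = 0.00026 from limma) and passed without each array in turn. The other, whose probes can match further transcripts, read 2154, 2143 and 2097 with vehicle and 1806, 1498 and 1644 with EB (log2 fold change -0.37, standard error 0.08, adjusted p = 0.026 from limma). Replicates were tight in both groups in the first probe set, but only with vehicle in the second (standard deviation 30.1, against 154 with EB). The second probe set did not pass without EB replicate 2 (-0.31) or 3 or without vehicle replicate 1 or 2 (-0.37 in all 3 cases). Of 16 measured dendritic spine and actin genes, Rac1 was the only one that passed by its brightest probe set, and their median was 0.09.

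Gng2, a γ subunit of heterotrimeric G proteins, read 282, 285 and 291 with vehicle and 164, 131 and 118 with EB (log2 fold change -1.07, standard error 0.15, adjusted p = 0.00044 from limma). Ywhab, a 14-3-3 protein that binds phosphorylated partners, read 924, 868 and 889.6 with vehicle and 545, 449 and 323 with EB (log2 fold change -1.06, standard error 0.15, adjusted p = 0.00037 from limma). In both genes the vehicle mice were close to one another and the EB mice were spread, and both probe sets passed without each array in turn. The brightest probe sets of Gng2 and Ywhab, at -0.14 and 0.05, did not pass. A related 14-3-3 gene, Ywhaz, was lower in 1 of 7 probe sets (log2 fold change -0.47, adjusted p = 0.025 from limma), and did not pass without EB replicate 2 or 3 or without vehicle replicate 1 or 3, with values from -0.45 to -0.41.

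Map1b, a microtubule-binding protein of growing axons, read 602, 749 and 776 with vehicle and 454, 312 and 259 with EB in its called probe set (log2 fold change -1.08, adjusted p = 0.030 from limma), and its brightest probe set was at -0.12 and did not pass. Prkar2a, a regulatory subunit of the kinase that responds to cyclic AMP, read 39.0, 61.5 and 46.5 with vehicle and 16.3, 19.2 and 15.3 with EB (log2 fold change -1.51, adjusted p = 0.0086 from limma). Ppp1r12a, the targeting subunit of myosin phosphatase, read 57.1, 63.4 and 53.2 with vehicle and 36.7, 23.2 and 8.41 with EB (log2 fold change -1.58, adjusted p = 0.016 from limma). The called probe sets of these 3 genes failed without EB replicate 3, where they were at -0.91, -1.45 and -0.99, and also without vehicle replicate 2. The brightest probe sets of Prkar2a and Ppp1r12a, at 0.08 and 0.09, did not pass. Syt1, the calcium sensor of transmitter release, read 237, 237 and 226 with vehicle and 146, 148 and 92.6 with EB in 1 of 4 probe sets (log2 fold change -0.89, adjusted p = 0.026 from limma), and did not pass without EB replicate 3 (-0.67, adjusted p = 0.23 from limma) or without vehicle replicate 1 or 2 (-0.88 in both).

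Among genes of RNA processing and protein synthesis, Srsf1, a splicing factor rich in serine and arginine, read 394, 485 and 372 with vehicle and 299, 216 and 186 with EB in 1 of 6 probe sets (log2 fold change -0.85, standard error 0.13, adjusted p = 0.0011 from limma). Srsf2, of the same family, read 559, 514 and 575 with vehicle and 435, 406 and 311 with EB in one probe set (log2 fold change -0.53, adjusted p = 0.0062 from limma), which did not pass without EB replicate 3 (-0.39, adjusted p = 0.093 from limma). A second Srsf2 probe set was at -0.37 (adjusted p = 0.030 from limma) and did not pass without EB replicate 3 (-0.22) or without any 1 of the vehicle arrays. Probe sets of these splicing factors can match further transcripts. Of 29 measured splicing regulators none passed by the brightest probe set, with a median of -0.002.

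Serinc3, which encodes a membrane protein of several spans, read 378, 556 and 476 with vehicle and 255, 191 and 152 with EB (log2 fold change -1.25, standard error 0.18, adjusted p = 0.00037 from limma). Serp1, a protein of the endoplasmic reticulum that protects newly made membrane proteins, read 141, 127 and 143 with vehicle and 69.8, 47.7 and 65.2 with EB (log2 fold change -1.19, standard error 0.20, adjusted p = 0.0035 from limma). Both called probe sets passed without each array in turn, as did that of Trim35, of a family of ubiquitin ligases, at -1.13. The brightest probe sets of Serinc3, Serp1 and Trim35, at 0.05, -0.13 and 0.01, did not pass. Eif2s3x, a subunit of the initiation factor eIF2, was at -1.17 (adjusted p = 0.0083 from limma) and failed without EB replicate 3 or vehicle replicate 2. The remaining lower genes named for the size of their change were B230219D22Rik at -1.55, Sypl, a membrane protein of transport vesicles, at -1.28, Zfp266 at -1.25, Rbm18 at -1.16, Angel2 at -1.13 and Ahcyl1, a regulator of inositol trisphosphate receptors, at -1.11.

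Of the 20 lower genes named for the size of their change, Dyrk1a, Ugcg, Klc1, Serinc3, Serp1, Trim35 and Gng2 passed without each of the 6 arrays in turn and 13 did not. All 13 failed without EB replicate 3, where the log2 fold changes of the 20 probe sets ran from -1.60 to -0.82. Without vehicle replicate 2, 8 of the 20 passed, with values from -2.63 to -1.03, and without EB replicate 1 all 20 passed, with values from -3.17 to -1.18.

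Snrnp48 encodes a protein of the minor spliceosome, which removes a rare class of introns. It read 47.0, 60.6 and 57.0 with vehicle and 161, 147 and 173 with EB, so that each EB mouse had more than any vehicle mouse by a wide margin. The signal was 2.93-fold higher (log2 fold change 1.55, standard error 0.23, adjusted p = 0.00045 from limma), and of the 15 genes named as higher Snrnp48 was the only one that passed without each array in turn. Its 3 other probe sets had log2 fold changes of 0.30, 0.16 and 0.35 and did not pass, and in 2 of them the EB arrays lay above the vehicle arrays. Of 7 measured genes of the minor spliceosome none passed by the brightest probe set, and their median was 0.19, with values from 0.09 to 0.34.

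Cxcl1, a chemokine that attracts neutrophils, read 32.5, 34.6 and 40.4 with vehicle and 52.4, 74.6 and 73.6 with EB in a probe set whose probes can match further transcripts (log2 fold change 0.89, standard error 0.19, adjusted p = 0.027 from limma). It was not called without EB replicate 2 (0.80, adjusted p = 0.082 from limma), without EB replicate 3 (0.81, adjusted p = 0.18 from limma) or without vehicle replicate 1 (0.82) or 2 (0.87). The second Cxcl1 probe set overlapped between the groups, at 37.5, 6.08 and 19.9 with vehicle and 26.1, 32.5 and 19.7 with EB. Of 12 measured chemokine and acute inflammatory genes Cxcl1 was the only one that passed, and their median was 0.13.

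Iqsec2, an exchange factor for Arf GTPases at synapses, read 40.6, 53.4 and 54.0 with vehicle and 74.9, 88.8 and 108 with EB (log2 fold change 0.87, standard error 0.18, adjusted p = 0.024 from limma). Akr1b10, an aldo-keto reductase, read 37.7, 46.7 and 61.4 with vehicle and 82.5, 76.4 and 87.1 with EB (log2 fold change 0.78, adjusted p = 0.030 from limma). Mpeg1, a perforin-like protein of macrophages, read 71.5, 59.2 and 54.6 with vehicle and 101, 96.7 and 98.3 with EB (log2 fold change 0.68, adjusted p = 0.042 from limma). The EB arrays of Mpeg1 were nearly equal. Igdcc4, a cell surface protein of the immunoglobulin family, also had tight replicates, at 429.7, 449.9 and 437 with vehicle and 617, 636 and 624 with EB (log2 fold change 0.51, standard error 0.10, adjusted p = 0.010 from limma). Timp4, an inhibitor of matrix metalloproteinases, read 179, 188 and 165 with vehicle and 247, 290.5 and 229.7 with EB (log2 fold change 0.52, adjusted p = 0.030 from limma). The other probe sets, at 0.44 for Iqsec2, 0.02 and -0.09 for Akr1b10, 0.08 and -0.35 for Igdcc4 and 0.17 for Timp4, did not pass.

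The remaining higher genes were Pitpnc1, a lipid transfer protein, at 0.65, Uck2, a kinase of uridine and cytidine, at 0.62, Trim9, a ubiquitin ligase of neurons, at 0.58, Cc2d1a at 0.52, Unc50 at 0.51, Abcg4, a transporter of sterols, at 0.49, Tbc1d9b at 0.48 and Nlk, a kinase, at 0.48. Their calls rested on most of the arrays. Of the 15 higher genes named, 2 passed without EB replicate 3, with values from 0.42 to 1.49, and 2 without vehicle replicate 2, with values from 0.48 to 1.63. Without EB replicate 2, 5 passed, and without vehicle replicate 1, 6 passed. A probe set with no gene symbol had the largest increase of all, at 18.8, 1.68 and 17.5 with vehicle and 40.01, 30.4 and 37.3 with EB (log2 fold change 2.12, adjusted p = 0.048 from limma). In it, vehicle replicate 2 was far below the other arrays, and without it the log2 fold change was 0.98 and was not called. It was named after its values were seen.

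Promoters of the called genes were searched for 6 short motifs after the values had been seen, so the shares are a description with no test. RefSeq windows of 250 bases before to 50 bases after a start (mouse build GRCm38.p6) were found for 70 of the 90 lower genes (100 windows) and 19 of the 22 higher genes (22 windows). The cAMP response element, TGACGTCA, which reads the same on both strands and is bound by CREB and related factors, was in 11 of the 100 windows of lower genes and in 0 of the 22 of higher genes, against 2.93% of the 12961 windows of all genes tested. The 10 lower genes with a match were Ahcyl1, Clasp2, Clcn3, Golph3, Klc1, Pwp1, Ralgapa1, Rcan1, Sh3gl2 and Zfp266. Among them, Klc1 alone was still called without EB replicate 3, where only 24 lower probe sets were called in all. The share was not recomputed without that array. The full estrogen response element, an inverted repeat with a gap of 3 bases that also reads the same on both strands, was in none of the windows of called genes and in 0.01% of those of all genes tested. On either strand, the AP-1 site TGANTCA was in 8 of the 100 windows of lower genes, 1 of the 22 of higher genes and 4.8% of those of all genes tested. The TATA box TATAAA was in 13, 1 and 7.24%, the GC box GGGCGG in 66, 16 and 62.02%, and the CCAAT box in 37, 5 and 37.34%. No motif contains another, and a match is a match of letters only.

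Of the 3 promoters that follow, those of Klc1 and Golph3 show the match in 2 lower genes, with the element in capitals, and that of Snrnp48, the higher gene with the largest change, shows a window without it. Klc1 is read on the plus strand at chr12:111758618-111758917, with the match 33 bases before the start. Golph3 is read on the plus strand at chr15:12321246-12321545, with the match 63 bases before the start, and Snrnp48 on the plus strand at chr13:38204689-38204988.
Klc1: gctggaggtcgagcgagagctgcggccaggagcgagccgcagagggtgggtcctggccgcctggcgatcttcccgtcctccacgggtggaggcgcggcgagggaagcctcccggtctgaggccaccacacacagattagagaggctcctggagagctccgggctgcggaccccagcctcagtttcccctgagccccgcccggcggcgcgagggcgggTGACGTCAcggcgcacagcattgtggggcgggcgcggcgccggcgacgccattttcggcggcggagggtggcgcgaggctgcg
Golph3: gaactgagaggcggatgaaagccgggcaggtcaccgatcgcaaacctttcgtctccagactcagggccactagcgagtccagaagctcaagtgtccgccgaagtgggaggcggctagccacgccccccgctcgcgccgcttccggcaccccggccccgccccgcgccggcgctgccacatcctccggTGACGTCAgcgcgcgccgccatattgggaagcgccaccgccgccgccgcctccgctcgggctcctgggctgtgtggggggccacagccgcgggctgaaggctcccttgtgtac
Snrnp48: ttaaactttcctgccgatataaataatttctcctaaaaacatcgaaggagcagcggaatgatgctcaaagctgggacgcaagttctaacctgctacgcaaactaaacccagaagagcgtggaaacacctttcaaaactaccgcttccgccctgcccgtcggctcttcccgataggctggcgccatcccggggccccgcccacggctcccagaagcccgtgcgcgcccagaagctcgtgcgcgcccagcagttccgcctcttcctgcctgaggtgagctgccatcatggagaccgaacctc

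Most lower genes were called by 1 of several probe sets and not by the brightest. Of the 90 lower genes, 88 had more than 1 kept probe set. Their 209 uncalled probe sets had a median log2 fold change of -0.001, and 106 of them were negative (50.7%, against 40.3% of all probe sets tested). The brightest probe set was a called one in 4 of the 90 lower genes and in 16 of the 22 higher genes. The 43 uncalled probe sets of the higher genes had a median of 0.12, and 32 of them were positive (74.4%, against 59.7% of all). Probe sets of the type that matches several transcripts of a gene, with names ending in a_at, made up 28 of the 102 lower ones (27.5%) and 12.4% of all those tested. Which stretch of a transcript each probe set reads was not analysed here.

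**Figure D2:**
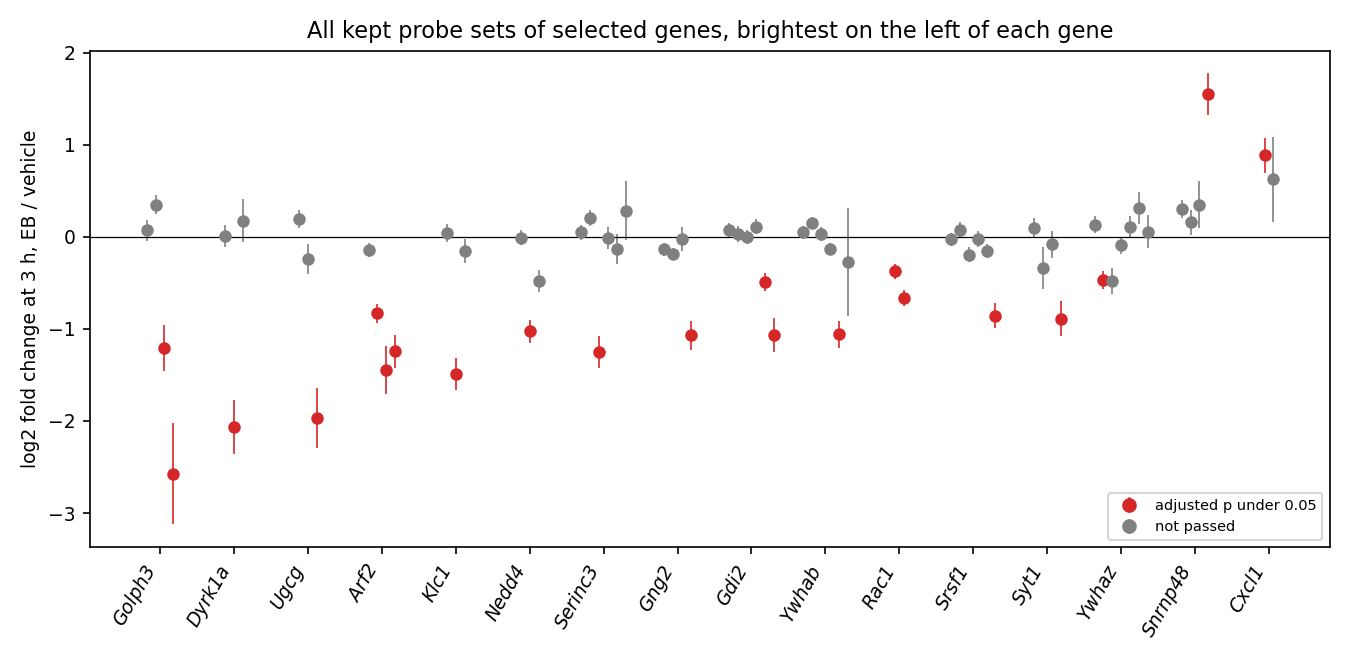
Log2 fold change of EB over vehicle at 3 h (y axis; bars, standard error from limma) for every kept probe set of 16 genes (x axis), ordered within a gene from the brightest on the left, with red points for an adjusted p under 0.05 and grey points for the others. Klc1 holds a red point at -1.49 beside grey points at 0.04 and -0.15, and both points of Rac1 are red.

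The probe sets called at 3 h were followed at 1, 6, 12 and 24 h, each with 3 EB and 3 vehicle mice of its own. At 1 h, 100 of the 102 lower probe sets had a negative log2 fold change (98.0%, against 43.7% of all probe sets tested), with a median of -0.31 against 0.03 over all. None passed at 1 h in limma, and 52 had an unadjusted p under 0.05 (51.0%, against 8.63% of all). After 6 h, 82 were negative (80.4%, against 45.7% of all) and the median was -0.13. After 12 h most lay on the other side, with 28 negative (27.5%, against 52.0% of all) and 74 positive (72.5%, against 48.0% of all), and a median of 0.09. After 24 h, 64 were negative (62.7%, against 52.1% of all, median -0.05). None passed in limma at 6 or 12 h, with 7 and 6 at an unadjusted p under 0.05 (6.86% and 5.88%, against 6.0% and 6.56% of all), and 2 passed at 24 h, Tcea1 and the brighter probe set of Rac1, at -0.51 and -0.41.

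Klc1, Ugcg and Dyrk1a show the course of 3 genes among those with the largest changes. Over the 5 times, from 1 to 24 h, the log2 fold change of Klc1 was -0.81, -1.49, -0.20, 0.22 and -0.04. That of Ugcg was -1.16, -1.96, -0.07, 0.10 and -0.10, and that of Dyrk1a -0.67, -2.07, -0.19, 0.46 and 0.05. In these 3 genes the difference was largest at 3 h and close to 0 at 24 h, and only that at 3 h passed. The size was largest at 3 h, the time that chose the probe sets, in 101 of the 102 lower and 25 of the 26 higher probe sets, and the exceptions, the brighter probe set of Rac1 and that of Trim9, were larger at 24 h. Of the 26 higher probe sets, the number with a positive value was 19 after 1 h (73.1%, against 56.3% of all probe sets tested), 10 after 6 h (38.5%, against 54.3%), 11 after 12 h (42.3%, against 48.0%) and 17 after 24 h (65.4%, against 47.9%). Trim9 passed again after 24 h, at 0.61.

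**Figure D3:**
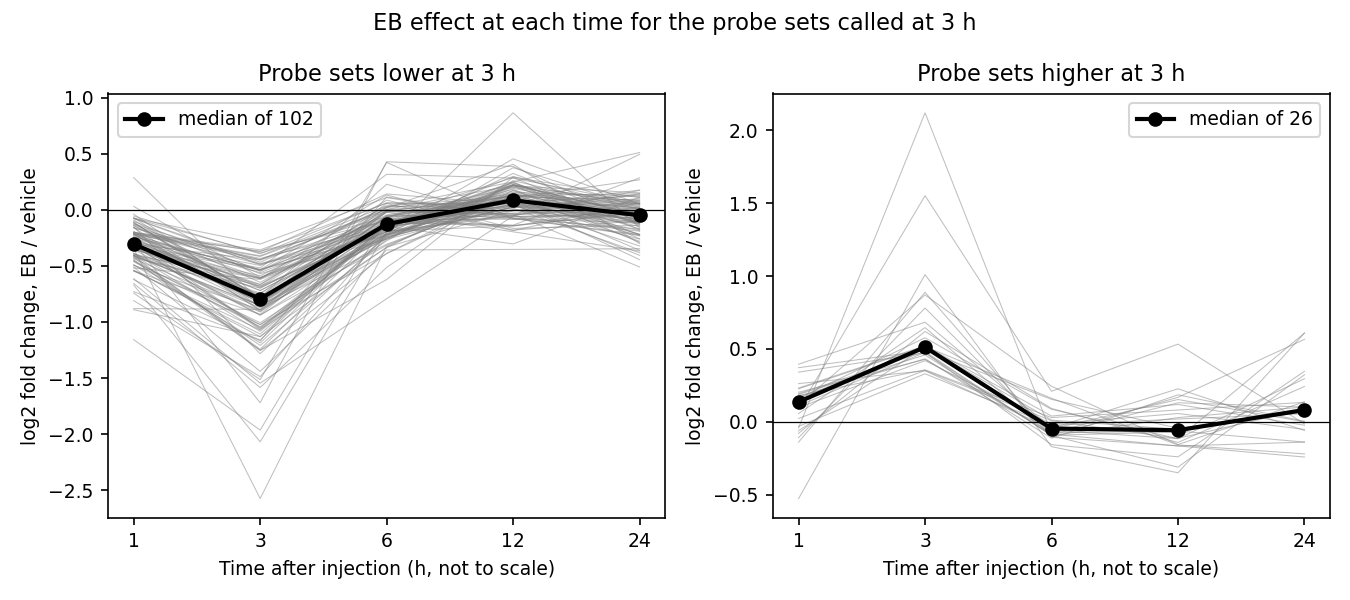
Log2 fold change of EB over vehicle (y axis; the panels differ in scale) at each time after injection (x axis, h, not to scale) for the 102 probe sets lower at 3 h (left) and the 26 higher at 3 h (right), with a grey line for each probe set and a black line for the median. The median of the lower probe sets was -0.31 after 1 h, -0.79 after 3 h and -0.13 after 6 h.

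The effect at 3 h was tested against the mean effect at the other 4 times. It differed in 15 probe sets (0.0555%) at an adjusted p under 0.05 from limma, and 13 of these also passed at 3 h. The difference was -1.28 for Klc1 (adjusted p = 0.0037 from limma), -0.93 for Nedd4 (0.0037), -1.98 for Dyrk1a (0.0098), -0.56 for Rac1 (0.023) and 1.35 for Snrnp48 (0.029). Without EB replicate 3 or without vehicle replicate 2, limma called 0 probe sets, with 1954 and 2303 at an unadjusted p under 0.05, against 2694 with all arrays. Ugcg did not pass (-1.66, adjusted p = 0.10 from limma), and for the lower probe sets outside the 15 a difference between times was not shown.

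The mean level of the 102 lower probe sets in each array placed the groups apart at 2 times. Each probe set was centred on its mean over all 30 arrays, and the array's own median over all probe sets tested was subtracted. At 3 h the EB arrays were at -0.12, -0.30 and -0.64 for replicates 1, 2 and 3, and the vehicle arrays lay between 0.49 and 0.60. At 1 h, where the rule did not choose the probe sets, the EB arrays lay between 0.20 and 0.38 and the vehicle arrays between 0.58 and 0.63. The groups overlapped at 6, 12 and 24 h. The means of the vehicle groups, in order of time, were 0.61, 0.54, -0.07, -0.61 and 0.15, so that oil-injected mice of 12 h were on average below the EB mice of 3 h (-0.35), with overlapping ranges. The higher probe sets did not overlap between groups at 1, 3 and 24 h, and EB was above vehicle at each of these times.

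At 1 and 3 h a sign of array or RNA quality also differed between the groups. The ratio of signal at the 3′ end to that at the 5′ end of 18S ribosomal RNA, read from control probe sets, was 0.692, 0.583 and 0.534 in the vehicle mice and 0.723, 0.765 and 0.919 in the EB mice of 3 h, which did not overlap (p = 0.1 in a two-sided exact permutation test, which 3 against 3 arrays cannot go below). EB replicate 3 had the highest ratio and the lowest mean of the 102 probe sets. The ratio did not overlap at 1 h either, at 0.635 to 0.734 with EB and 0.480 to 0.589 with vehicle, nor at 24 h, at 0.948 to 0.998 with EB and 0.746 to 0.888 with vehicle. In vehicle mice its mean was 1.23 after 6 h and 1.46 after 12 h, the time at which the 102 probe sets were lowest in vehicle mice. Other groups went the other way. After 12 h the EB mice had a higher mean ratio than the vehicle mice (1.62) and also a higher mean of the 102 probe sets (-0.51 against -0.61). Vehicle mice of 24 h had a mean ratio of 0.806, near that of the EB mice of 3 h (0.8025), with a mean of the 102 probe sets of 0.15 against -0.35. The part of this ratio in the result was not tested. The same ratio for Actb, at 1.35 to 1.44 with EB and 1.29 to 1.42 with vehicle, and that for Gapdh, at 0.705 to 0.712 and 0.674 to 0.711, overlapped at 3 h. The median deposited signal lay between 28.1 and 34.5 in the EB arrays and between 29.6 and 41.9 in the vehicle arrays of 3 h, against 28.1 to 66.9 over all 30 arrays. EB replicate 3 of 3 h had the lowest median of all 30 arrays. Its mean correlation of log2 signal with its own group (0.977) and with the other group of 3 h (0.972) was also the lowest of all 30.

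**Figure D4:**
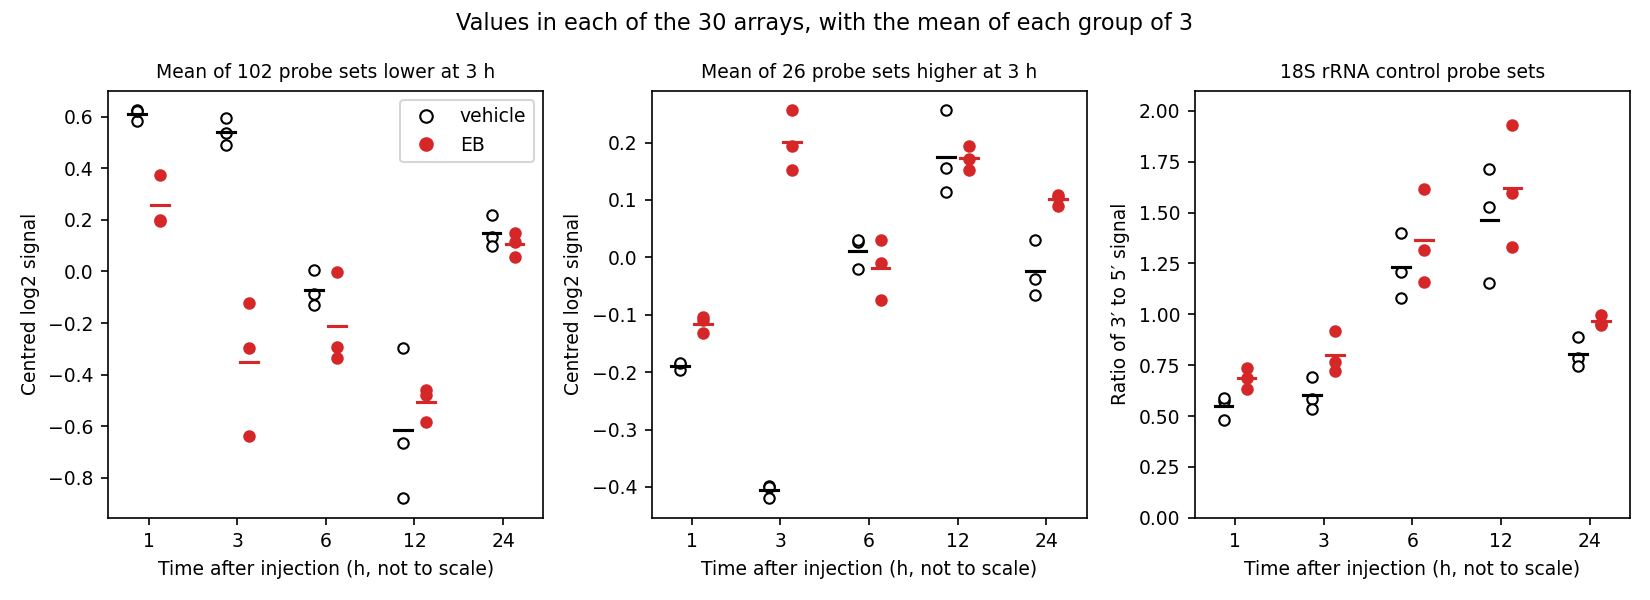
Mean centred log2 signal of the 102 probe sets lower at 3 h (left), that of the 26 higher at 3 h (middle), and ratio of 3′ to 5′ signal of the 18S ribosomal RNA control probe sets (right) on the y axes, for each of the 30 arrays by time after injection (x axis, h, not to scale), with open black points for vehicle, red points for EB and a horizontal line for each group mean (n = 3). At 3 h the EB arrays lie below the vehicle arrays on the left and above them in the middle and on the right.

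Known target genes of estradiol did not pass at 3 h. Pgr read 109, 110.0 and 114 with vehicle and 163, 144 and 103 with EB, so that 2 EB mice were above all vehicle mice and 1 below (log2 fold change 0.28, adjusted p = 0.40 from limma). Esr1, the gene of estrogen receptor α, read 101, 88.1 and 64.0 with vehicle and 112, 92.8 and 99.1 with EB (log2 fold change 0.28, adjusted p = 0.59 from limma). The dimmer probe sets of Pgr and Esr1, at 0.08 and -0.07, did not pass either. The brighter Greb1 probe set was at 0.04 and the other at -0.32, and neither passed (adjusted p = 0.96 and 0.54 from limma). Both Greb1 probe sets were dim, with signals from 23.9 to 43.0 in the 6 arrays, near the filter at about 21.9. Of 14 measured estrogen-responsive genes none passed (2 at an unadjusted p under 0.05, as had 12.8% of all probe sets tested), and their median log2 fold change was 0.13, with the largest value in Ramp3, a partner of G protein-coupled receptors, at 60.4, 22.1 and 48.5 with vehicle and 70.8, 49.2 and 66.2 with EB (log2 fold change 0.61, adjusted p = 0.29 from limma). None of the 5 receptor genes for sex steroids that were measured and none of 10 nuclear receptor coregulators passed (0 and 1 at an unadjusted p under 0.05), with medians of 0.07 and 0.09. Ncoa1, a coactivator of steroid receptors, read 281, 275 and 258 with vehicle and 303, 348 and 379.9 with EB, without overlap, and did not pass (log2 fold change 0.34, adjusted p = 0.13 from limma).

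By the brightest probe set of each gene, the immediate early genes had the highest median of the lists with more than 1 measured gene. It was 0.23 over 17 genes, of which 13 were positive, against 59.7% of all probe sets tested. With all kept probe sets of a gene their median was 0.185, below that of the chemokine and acute inflammatory genes (0.196). None passed, and 5 had an unadjusted p under 0.05, against 12.8% of all. Egr1, a transcription factor induced by neuronal activity and growth factors, read 179, 291 and 127 with vehicle and 278, 351 and 965 with EB (log2 fold change 1.28, adjusted p = 0.18 from limma). Fos, a subunit of the AP-1 transcription factor, read 133, 184 and 139 with vehicle and 206, 290.5 and 623 with EB, which did not overlap (log2 fold change 1.15, adjusted p = 0.12 from limma). Klf4, a zinc finger transcription factor, read 124, 179 and 112 with vehicle and 129.7, 301 and 393 with EB (log2 fold change 0.87, adjusted p = 0.19 from limma). In all 3 genes EB replicate 3 was the highest array by a clear margin, and 3 of the 17 genes had all EB arrays above all vehicle arrays, as did 8.71% of all probe sets tested.

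Of 14 measured glucocorticoid-responsive genes none passed, with a median of 0.17, and Nr3c2, the mineralocorticoid receptor, read 19.4, 31.6 and 17.7 with vehicle and 40.6, 36.6 and 41.5 with EB (log2 fold change 0.84, adjusted p = 0.12 from limma). Of 15 circadian clock genes none passed, with a median of 0.17, and Dbp, a clock output gene, read 43.8, 53.5 and 52.9 with vehicle and 63.1, 79.5 and 82.0 with EB (log2 fold change 0.58, adjusted p = 0.12 from limma). Neither gene overlapped between the groups. Among 21 measured hypothalamic neuropeptides none passed and the median was 0.18. Hcrt, the precursor of the orexins, was at -0.02 and Vip, a peptide of the suprachiasmatic nucleus, at 0.47 (adjusted p = 0.98 and 0.39 from limma). Ptgds, the prostaglandin D synthase of the meninges and choroid plexus, was at 0.09 (adjusted p = 0.97 from limma), and none of 8 measured genes of prostaglandin synthesis and reception passed.

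The markers of the tissue were present. Of 21 hypothalamic transcription factors 19 were measured, with a summed scaled signal of 5105 to 6601 in EB mice and 5669 to 6018 in vehicle mice. Of 13 lists of cell type and tissue markers, the sums of 12 overlapped between the groups, and 14% of all probe sets tested did not overlap in either direction. The sum of the 16 astrocyte and radial glia markers was 21821 to 25388 with EB and 20702 to 20966 with vehicle, without overlap (p = 0.1, again the floor of the exact permutation test), and none of the 16 passed in limma (4 at an unadjusted p under 0.05, against 12.8% of all probe sets). Slc1a3, a glutamate transporter of astrocytes, read 559, 586 and 619 with vehicle and 692, 705 and 809 with EB (log2 fold change 0.32, adjusted p = 0.28 from limma). The part of these cells in the 3 h result was not tested. The 21 leptomeningeal fibroblast markers summed to 10192 to 14266 with EB and 9798 to 15502 with vehicle, and their median log2 fold change was -0.18. Of 10 pituitary markers 1 was measured and of 13 blood cell markers 2.

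**Figure D5:**
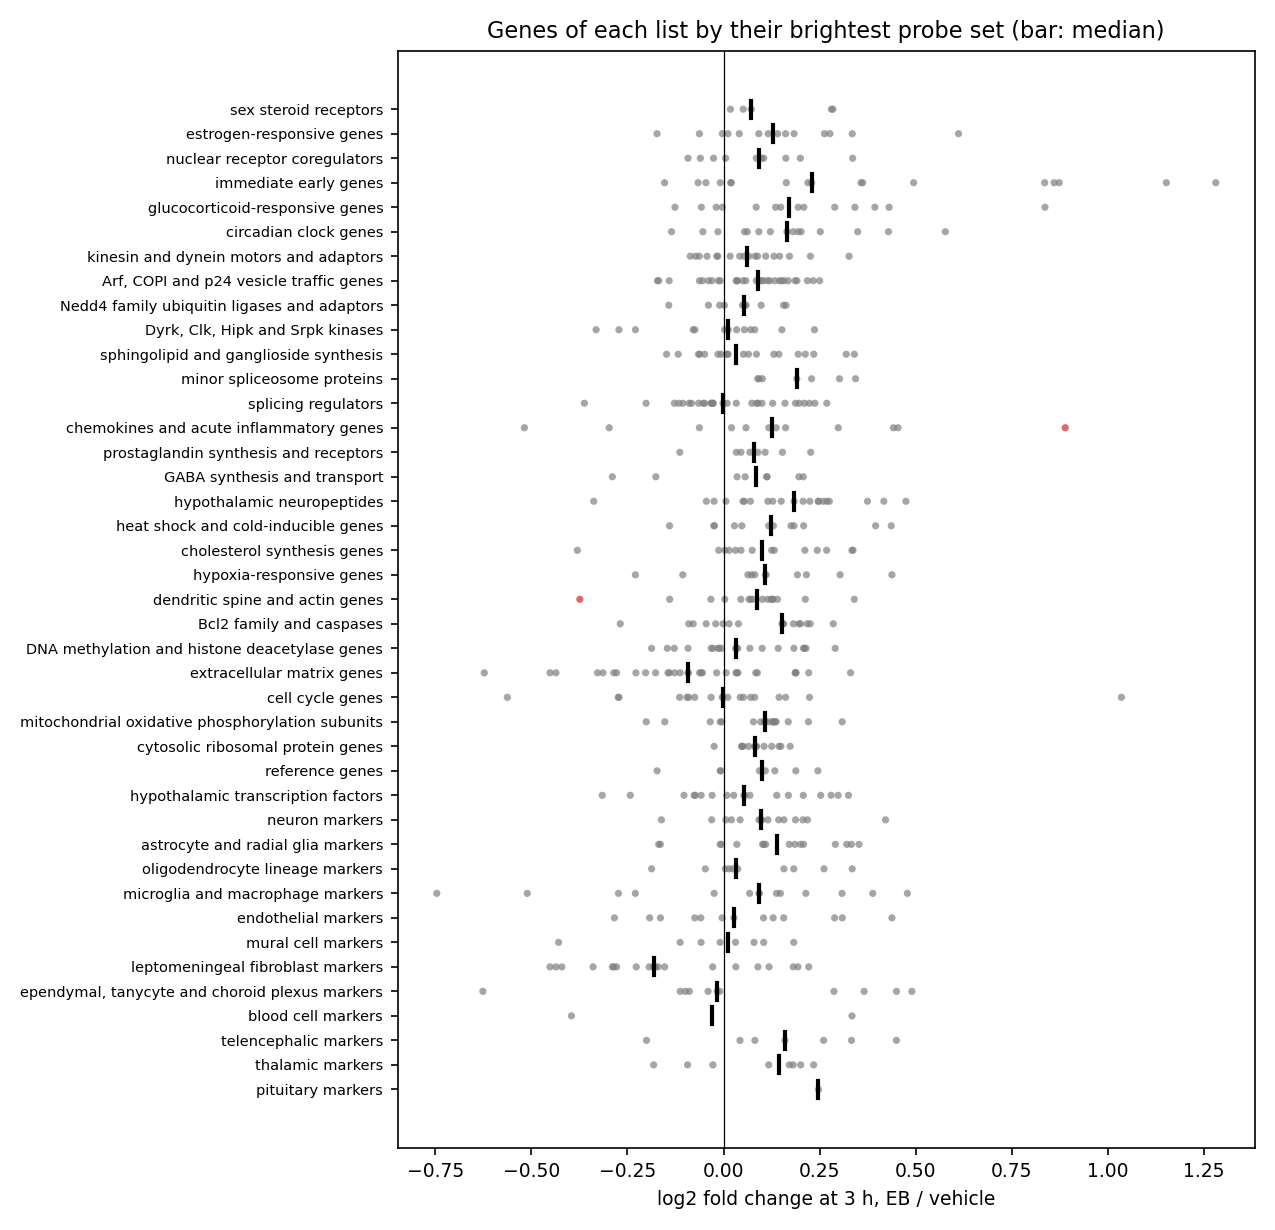
Log2 fold change of EB over vehicle at 3 h (x axis) of the genes of 41 lists (y axis), each gene by its brightest kept probe set, with red points for an adjusted p under 0.05, grey points for the others and a bar at the median of each list. The 2 red points are Cxcl1 at 0.89 and Rac1 at -0.37, and 35 of the 41 medians lie above 0 with scaling between arrays but 1 without it.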

How the data were processed

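Hypothalamic RNA of 30 newborn female mice, 3 for each of 2 treatments at 1, 3, 6, 12 and 24 h, was measured on Affymetrix arrays. The authors isolated RNA from individual animals and deposited signal intensity values on a linear scale, made with MAS5 per the submitters' processing notes. Its version and any scaling target are not stated there. Samples were mapped to array columns by title, and 0 columns had no sample.

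All arrays were brought to a common median, the average of the 30 deposited medians (41.28), signals under 1 were set to 1, and log2 was taken. After 64 control probe sets were removed, 45037 remained, of which 34945 had 1 gene symbol in the platform annotation, 932 several and 9160 none. Dim probe sets, the lowest 40% by mean log2 value (below a signal of about 21.9), were dropped, which left 27022 probe sets of 12388 genes. One model over the 10 groups of all 30 arrays was fitted in limma 3.58.1 (R 4.3.3; eBayes with trend, Benjamini-Hochberg adjustment, threshold 0.05), with EB against vehicle at 3 h and the 3 h effect against the mean of the other 4 as contrasts. Array-level measures were compared by exact two-sided permutation tests. The scripts were tested on simulated data.

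Named genes were those of the 20 lower and 15 higher non-overlapping called probe sets with the largest change, called members of the 41 gene lists, 13 genes known from the study or from earlier results, up to 3 members of a list by size of change, and up to 10 probe sets of the comparison between times. Members, genes and lists were chosen with earlier results of these data known. Alternatives were other scaling, low signal handling, filters, array weights, a replicate block, the 6 arrays alone, no variance trend, the methods' test (built on the two-way analysis of variance, on the deposited linear signals, unscaled) and leaving out each array. The methods' test set EB against vehicle at 3 h with the pooled residual spread of that analysis. It was adjusted by Benjamini-Hochberg over all probe sets kept, where the authors used a Bonferroni test after the analysis of each gene. The number of arrays limits the precision.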

Additional observations from a re-analysis of the deposited data

Results flagged for a closer look

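The effect of EB at 3 h minus the mean effect at 1, 6, 12 and 24 h passed in 15 probe sets in limma. It was -1.28 for Klc1, -0.93 for Nedd4, -1.98 for Dyrk1a, -0.56 for Rac1, -0.93 for Ywhab, -1.08 for Serinc3 and -0.87 for Gng2 on the log2 scale. For Arf2 it was -0.69 in one probe set and -1.10 in another. It was -0.82 for Rnf114, a ubiquitin ligase, -1.08 for Get1, which helps to insert proteins into the membrane of the endoplasmic reticulum, and -0.77 for Cadm1, a synaptic adhesion molecule. It was positive for Snrnp48 at 1.35, for Klhl7, an adaptor of a ubiquitin ligase, at 0.34 and for a probe set with no gene symbol at 1.17. Klhl7 and the probe set with no symbol did not pass at 3 h itself (adjusted p = 0.056 for both from limma). Without EB replicate 3 or without vehicle replicate 2 none of these differences passed in limma.

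Outside the gene measurements, the ratio of 3′ to 5′ signal of the 18S ribosomal RNA control probe sets had a mean of 0.8025 in the EB arrays of 3 h and of 0.603 in the vehicle arrays of 3 h, without overlap.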

How the results depend on the processing

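With 102 lower probe sets, 26 higher ones and 15 that differed between times, the counts moved by over 1.5 times under these settings. Lower counts were 235 without scaling, 183 after quantile normalization, 32 with array weights, 16 with the 6 arrays alone and 28 by the methods' test, and 24 to 183 over the 6 settings that leave out 1 array. Higher counts were 2 without scaling, 4 with array weights, 1 with the 6 arrays alone, 13 without the variance trend and 0 by the methods' test, which used unscaled signals (7 at an unadjusted p under 0.05, against 55 in limma without scaling and 2217 with it), and 3 to 86 without 1 array. Counts that differed between times were 25 without scaling, 25 after quantile normalization, 5 without the filter, 4 with array weights and 5 without the variance trend, and 0 to 48 without 1 array (limma; 1954 and 2303 at an unadjusted p under 0.05 where 0 passed). The split of higher against lower calls was 26 to 102 with scaling, 2 to 235 without it and 24 to 183 after quantile normalization. With a replicate block, limma called 95 lower, 23 higher and 11 differing probe sets. Replicates with the same number did not deviate together (correlations of 0.01, 0.074 and 0.069), so the numbers were not taken as pairs. The 51 probe sets recomputed one by one (called ones and the brightest ones of Pgr and Esr1) kept their direction under the settings whose filter left them in. Called probe sets were chosen for their change on these same arrays, so a kept direction is not support for them. Of the 26894 not called at 3 h, 46.6% changed sign without scaling. Of the 51, 14 changed to not passing without scaling, 30 with array weights, 36 with the 6 arrays alone and 33 by the methods' test, and 0 after quantile normalization or with another floor or pseudocount. Of all 102 lower probe sets 20 passed without each array in turn and 9 under all 17 settings, and of the 26 higher ones 1 and 0. The causes were not tested.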
